A study of Homo sapiens with 12 samples.

Results

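The module of NRF2, glutathione and oxidant defence is a set of 38 genes, found by name among the 59050 gene names of the count table. It holds 5 regulators, 9 genes of glutathione, 8 of thioredoxin and peroxiredoxins, 4 that make NADPH or feed it, 4 of iron and haem, 3 that remove superoxide and hydrogen peroxide, and 5 of inducible detoxification. Its members were followed in MyLa cells, an established cell line of cutaneous T cell lymphoma, after 24 h with 3.2 nM romidepsin plus 5.7 µM afatinib dimaleate (the combination), with 3.2 nM romidepsin alone, with 5.7 µM afatinib dimaleate alone, or with DMSO. Romidepsin inhibits histone deacetylases, and afatinib inhibits kinases of the ERBB receptor family. Each group had 3 libraries of bulk RNA sequencing, and all 4 groups, DMSO included, held interleukin-2 at 20 ng/mL and the same volume of DMSO. The series asks how the drugs act together, at 1 dose and 1 time in 1 cell line. No label states whether libraries within a group were separate cultures. The p-values therefore rest on the spread among these libraries alone, which may be technical.

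NRF2, the product of NFE2L2, is a transcription factor that the adaptor KEAP1 normally marks for degradation. When cysteines of KEAP1 are modified by oxidants or electrophiles, NRF2 persists, pairs with small MAF proteins and binds antioxidant response elements, while BACH1 competes for the same elements. Its targets import cystine, build and recycle glutathione and thioredoxin, supply NADPH, store iron and conjugate reactive compounds, and lymphoid cells depend on these systems during proliferation.

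The 12 libraries held between 8972228 and 12696653 counts, and the level of 3 counts, taken as the limit for a gene without a count, was 0.229 to 0.344 CPM, for counting error only. CPM are read counts scaled to the library size after TMM normalisation, here and below. The T cell markers CD3D, CD3G, CD247, CD2, TRAC and TRBC2 were present in every library, while CD5, CD28 and TRBC1 had at most 12 counts. The 9 T cell markers summed to 814 to 969 counts in the combination, 1120 to 1530 under romidepsin, 2650 to 3034 under afatinib and 3597 to 4690 in DMSO, and the part of this in the results below was not tested. Reads of the keratinocyte keratin KRT5 stood in combination replicate 1 (43 counts), afatinib replicate 3 (126) and DMSO replicates 1 and 2 (59 and 94), with at most 1 count in each of the other libraries. Counts of module members are given below also without these 4 libraries for some comparisons only. Counts that differed in other comparisons are not all given. Of the markers of other cell types, those of fibroblasts (COL1A1, COL1A2 and COL3A1) summed to 191 to 214 counts in the combination, 227 to 378 under romidepsin, 1058 to 1235 under afatinib and 1745 to 2275 in DMSO. Those of myeloid cells (CD14, LYZ, CSF1R and ITGAM) summed to 253 to 289 counts in the combination, 326 to 529 under romidepsin, 357 to 437 under afatinib and 307 to 414 in DMSO. Within that list LYZ had at most 2 counts, and CD14 had 31 to 39 in the combination and at most 4 elsewhere. The 4 keratinocyte markers summed to 890 to 1015 counts in the combination, 394 to 571 under romidepsin, 674 to 1102 under afatinib and 443 to 579 in DMSO, most of them KRT10, with KRT1 at 0. Erythroid markers summed to at most 6 counts, with HBB at 0. The B cell marker CD79A had 17 to 56 counts, and MS4A1 had none. The part of these markers in the results was not tested. In bulk RNA, fewer cells that express a gene and less RNA per cell cannot be told apart. Coordinates are those of the count table on GRCh38.

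After the filter on low counts, 33 members were among the 16208 genes tested. HMOX1, which encodes the inducible haem oxygenase and is a common marker of NRF2 activity, had at most 6 counts in a library and 26 in all 12 libraries. ME1 (malic enzyme) and PIR (pirin) had 4 counts each in all 12 libraries. The glutathione transferase gene GSTP1 reached 9 counts in the third afatinib library and 6 in DMSO replicate 2, both of which held keratin reads, and at most 2 elsewhere. These 4 members were near the counting limit in most libraries. EPHX1, the microsomal epoxide hydrolase, had 11, 10 and 6 counts in the combination, 7, 2 and 6 under romidepsin, 2, 6 and 5 under afatinib, and 1, 3 and 3 in DMSO. Its combination libraries (0.992, 0.764 and 0.458 CPM) lay above its DMSO libraries (0.0834, 0.303 and 0.263 CPM). Those DMSO libraries were at or below the limit of 3 counts, so this order is uncertain. None of these 5 members entered the test, and no fold change is given for them.

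With afatinib alone, 24 of the 33 tested members were higher than in DMSO and 3 were lower (edgeR, adjusted p below 0.05), against 22.0% of all tested genes higher and 23.3% lower. With romidepsin alone, 13 were higher and 8 lower, against 31.1% and 31.5% of all tested genes. With the combination, 23 were higher and 7 lower, against 37.2% and 37.1%. The median log2 fold change of the tested members was 0.72 under afatinib, 0.16 under romidepsin and 0.60 in the combination, where the median of all tested genes lay between -0.0050 and 0.0016. In each of these comparisons with DMSO, the 3 libraries of the drug group lay on 1 side of the 3 DMSO libraries for all members called. The share of all called genes that separated in this way was not counted, so this does not mark out the module. The share called higher thus stood above the background under afatinib (72.7%) and in the combination (69.7%), and closer to it under romidepsin (39.4%). The members were chosen with earlier results of these data known, so these shares are a description only. Without the 4 libraries with keratin reads, which leaves 1 DMSO library, 1 member (PRDX3) in place of 3 was called lower under afatinib.

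**Figure D1:**
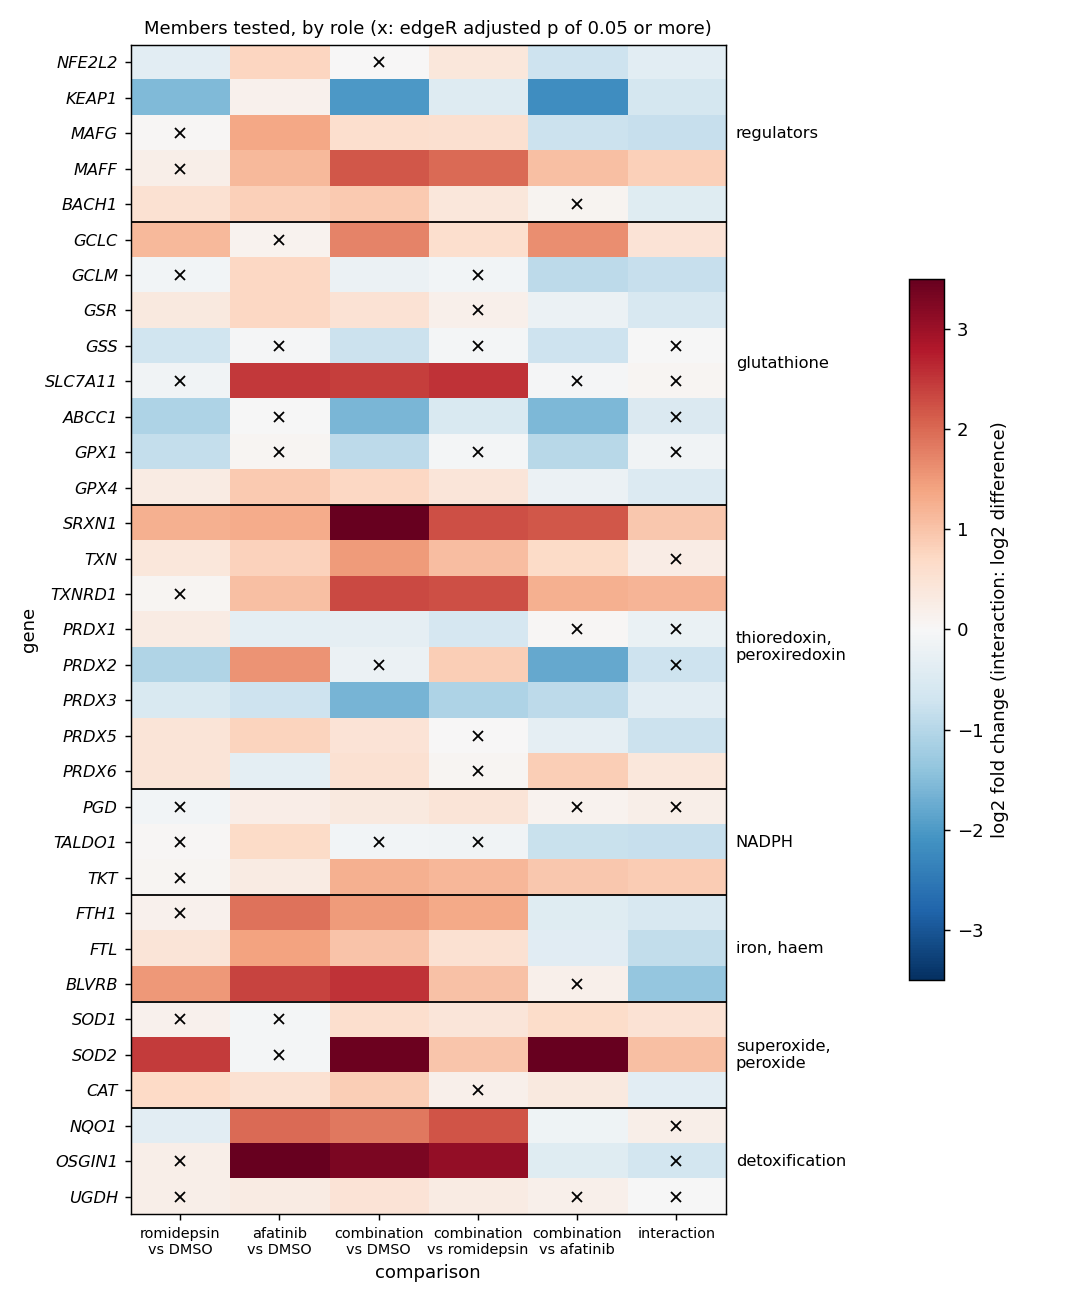
Log2 fold changes of the 33 tested members, grouped by role, in 6 comparisons, with the log2 difference for the interaction; red is higher and blue lower in the first-named group, and a cross marks an edgeR adjusted p of 0.05 or more. Regulators, iron and detoxification genes are red under afatinib, with 24 of 33 members higher there, while the romidepsin column holds 13 higher and 8 lower.

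Among the regulators, NFE2L2 rose with afatinib and fell with romidepsin, and KEAP1 fell wherever romidepsin was present. NFE2L2 (chromosome 2, 177227595 to 177392697) had 84.3, 95.9 and 86.8 CPM in the combination, 69.2, 67.7 and 67.8 CPM under romidepsin, 155, 138 and 149 CPM under afatinib and 91.4, 86.7 and 85.1 CPM in DMSO. The afatinib libraries were the highest and the romidepsin libraries the lowest, without overlap with DMSO, while combination and DMSO libraries overlapped. NFE2L2 thus rose under afatinib (edgeR log2 fold change 0.75, SE 0.07, adjusted p = 1.82e-13) and fell under romidepsin (edgeR log2 fold change -0.36, SE 0.07, adjusted p = 1.04e-05), without overlap of libraries. In the combination its log2 fold change was 0.02 (95% interval -0.11 to 0.16, edgeR adjusted p = 0.781). Other genes share 21.9% of the exon bases of NFE2L2, mainly AC019080.1 on the same strand, and reads in shared bases are not assigned. AC019080.1 had 62 to 76 counts in the combination, 30 to 48 under romidepsin, 46 to 62 under afatinib and 19 to 24 in DMSO. KEAP1 (chromosome 19, 10486125 to 10503558) had 84.02, 71.3 and 77.6 CPM in the combination, 113, 107 and 101 CPM under romidepsin, 335, 369 and 339 CPM under afatinib and 321, 333 and 278 CPM in DMSO. All combination and romidepsin libraries lay below all afatinib and DMSO libraries. The log2 fold change of KEAP1 was -2.00 (SE 0.07, edgeR adjusted p = 4.80e-30) in the combination and -1.54 (SE 0.07, edgeR adjusted p = 2.32e-25) under romidepsin. The combination was also below romidepsin alone (edgeR log2 fold change -0.46, SE 0.07, adjusted p = 1.87e-07) and below afatinib alone (edgeR log2 fold change -2.16, SE 0.07, adjusted p = 3.08e-31). The small difference of KEAP1 under afatinib (edgeR log2 fold change 0.16, SE 0.06, adjusted p = 0.0308) was not called without afatinib replicate 2 (edgeR adjusted p = 0.202), without DMSO replicate 3 (edgeR adjusted p = 0.291), without the filter on low counts (edgeR adjusted p = 0.165) or with DESeq2 (adjusted p = 0.0862).

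BACH1, which encodes the repressor that competes with NRF2, was higher in all 3 drug groups. BACH1 (chromosome 21, 29194071 to 29630751) had 49.9, 52.7 and 44.5 CPM in the combination, 34.7, 40.1 and 37.8 CPM under romidepsin, 49.6, 42.6 and 44.8 CPM under afatinib and 24.3, 26.1 and 27.1 CPM in DMSO. Every drug-treated library lay above every DMSO library. The rise as a log2 fold change was 0.93 (SE 0.09, edgeR adjusted p = 7.60e-13) in the combination, 0.54 (SE 0.09, edgeR adjusted p = 2.33e-06) under romidepsin and 0.82 (SE 0.09, edgeR adjusted p = 2.21e-10) under afatinib. MAFG and MAFF, which encode small MAF partners of NRF2, differed in where they were highest. MAFG (chromosome 17, 81918270 to 81927735) had 318, 315 and 324 CPM in the combination, 215, 222 and 210.1 CPM under romidepsin, 574, 514 and 535 CPM under afatinib and 212, 215 and 205 CPM in DMSO. The afatinib libraries lay above all others (edgeR log2 fold change 1.36, SE 0.05, adjusted p = 7.79e-26). In the combination MAFG was also above DMSO (edgeR log2 fold change 0.60, SE 0.05, adjusted p = 7.32e-14) and below afatinib alone (edgeR log2 fold change -0.76, SE 0.05, adjusted p = 1.22e-17). MAFF (chromosome 22, 38200767 to 38216507), at a low level, had 9.65, 14.1 and 11.2 CPM in the combination, 2.23, 3.44 and 3.26 CPM under romidepsin, 6.17, 4.45 and 6.34 CPM under afatinib and 2.00, 3.43 and 2.37 CPM in DMSO. The combination was the highest group for MAFF, above DMSO (edgeR log2 fold change 2.19, SE 0.21, adjusted p = 6.37e-13) and above afatinib alone (edgeR log2 fold change 1.04, SE 0.19, adjusted p = 3.01e-06).

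**Figure D2:**
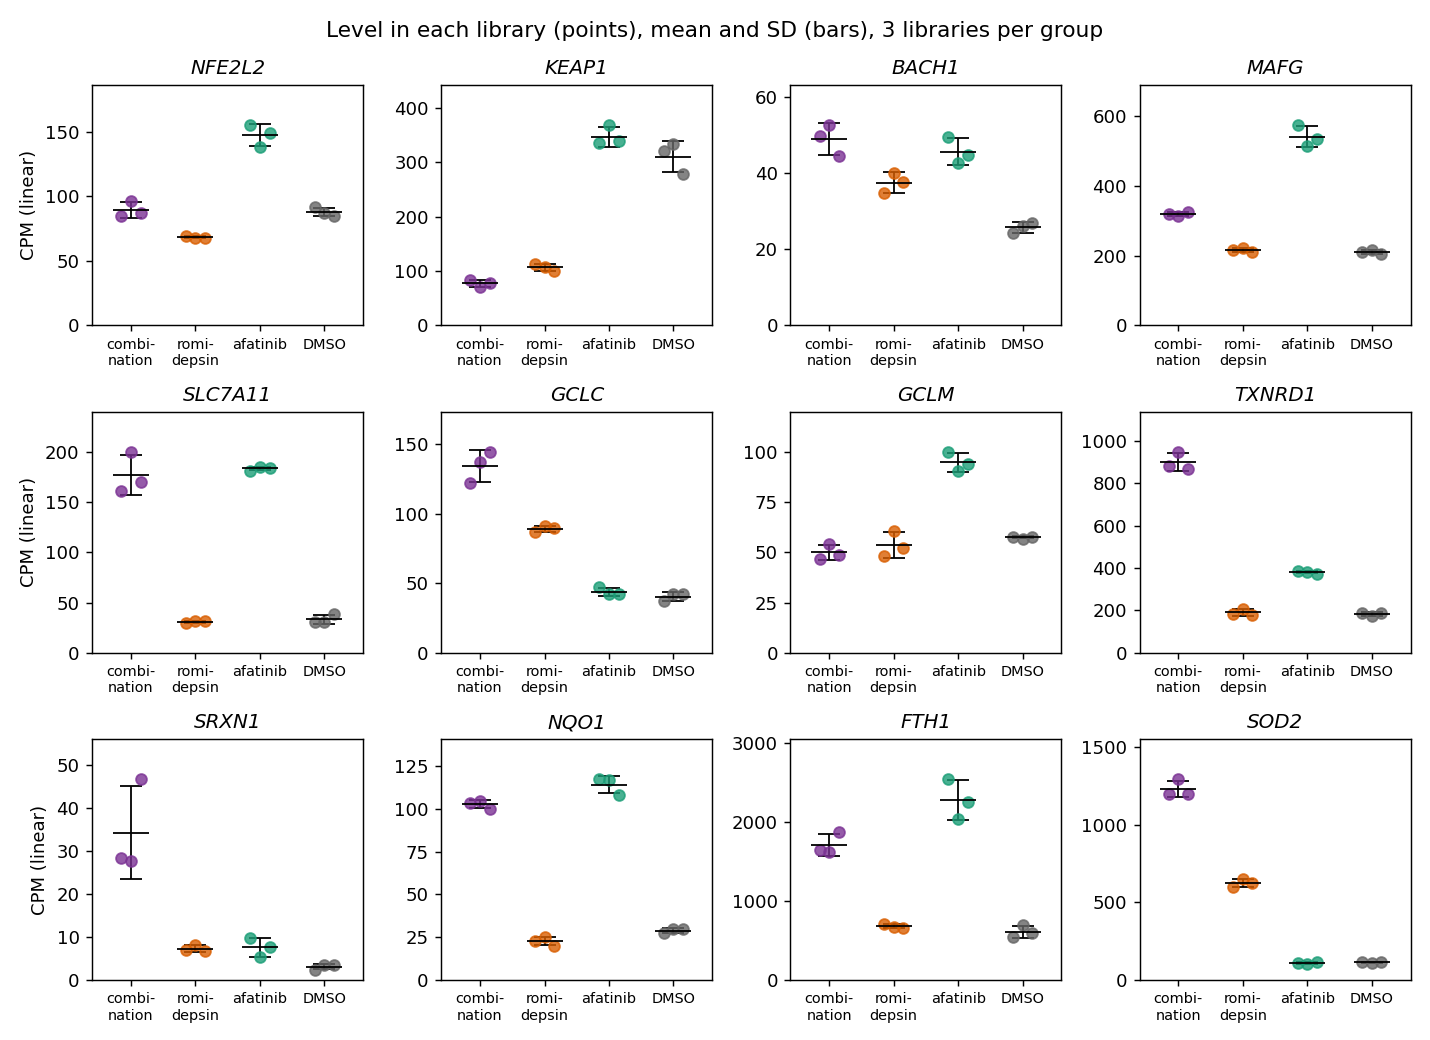
CPM of 12 members on linear axes that start at 0, each with its own scale; coloured points are the 3 libraries of a group, black bars the mean and SD. KEAP1 is low in the combination and romidepsin libraries, SLC7A11, NQO1 and FTH1 are high in the combination and afatinib libraries, GCLC and SOD2 are high in the combination and romidepsin libraries, and TXNRD1 and SRXN1 are highest in the combination.

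The core of the antioxidant response element, TGACNNNGC, was searched on both strands in RefSeq promoter windows on GRCh38.p14. Each window ran from 250 bases before a gene's start to 50 bases after it. The table held 43 windows for 29 of the 38 members. HMOX1, GSR, GSS, SLC7A11, FTH1, ABCC1, PRDX1, PRDX6 and SOD1 had no window and were not searched for any motif. The core stood in 10 of these 43 windows (23.3%), against 13.3% of all 35116 windows. The E-box CACGTG stood in 11.6% of the members' windows and 7.26% of all windows, and the amino acid response element core TGATGNAA in none of the 43, against 3.62% of all. The 9 members with an antioxidant response element core were KEAP1, TXNRD1, GCLM, PGD, ME1, GSTP1, EPHX1, MAFF and PIR. Of these, ME1, GSTP1, EPHX1 and PIR had too few counts to test, so the share of 23.3% does not describe the tested members alone. The windows of NQO1, OSGIN1, BLVRB and FTL, which rose under afatinib, held no match. Bases outside the windows were not searched, so a window without a match does not show that a gene lacks the element. A relation between matches and changes in level was not tested. A match is a description of letters and not of a bound site. The sequences below each show 1 match before the start, in capitals, with 30 bases on each side, 5′ to 3′ on the gene's strand. They were chosen from members that rose in the combination (TXNRD1, MAFF, PGD) and members that did not rise there (KEAP1, GCLM). ME1 and GSTP1 were chosen from members near the counting limit. The KEAP1 stretch holds a second match before the start, TGACACGGC, left in lower case, and the first TXNRD1 window holds another, GCTCCGTCA, outside the stretch shown. The match of EPHX1 before the start (TGACTTGGC) and those of PIR and ME1 after the start are not shown.
KEAP1, chr19:10502764-10502832, minus strand: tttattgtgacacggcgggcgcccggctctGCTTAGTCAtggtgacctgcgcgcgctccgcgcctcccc
GCLM, chr1:93909426-93909494, minus strand: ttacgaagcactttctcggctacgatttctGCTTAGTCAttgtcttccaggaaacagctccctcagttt
TXNRD1, first window, chr12:104215650-104215718, plus strand: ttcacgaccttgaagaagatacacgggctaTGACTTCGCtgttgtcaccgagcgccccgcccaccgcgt
TXNRD1, second window, chr12:104286900-104286968, plus strand: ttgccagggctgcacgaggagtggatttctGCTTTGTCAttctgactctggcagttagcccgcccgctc
MAFF, chr22:38201842-38201910, plus strand: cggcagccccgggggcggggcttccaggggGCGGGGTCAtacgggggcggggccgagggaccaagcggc
PGD, chr1:10398833-10398901, plus strand: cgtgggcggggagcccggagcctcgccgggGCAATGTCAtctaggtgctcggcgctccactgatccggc
ME1, chr6:83431150-83431218, minus strand: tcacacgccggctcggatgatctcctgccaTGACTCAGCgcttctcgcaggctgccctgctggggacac
GSTP1, chr11:67583716-67583784, plus strand: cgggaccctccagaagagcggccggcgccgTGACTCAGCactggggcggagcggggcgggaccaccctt
KEAP1 and GCLM held the same 9 letters, GCTTAGTCA, and ME1 and GSTP1 both held TGACTCAGC. Of the pair with GCTTAGTCA, KEAP1 fell in the combination and under romidepsin, and GCLM was highest under afatinib, as given below.

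SLC7A11, which encodes the cystine transporter subunit xCT, rose with afatinib with or without romidepsin. SLC7A11 (chromosome 4, 138164097 to 138242349) had 161, 199.99 and 171 CPM in the combination, 29.6, 31.3 and 31.5 CPM under romidepsin, 182, 185 and 184 CPM under afatinib and 30.7, 30.6 and 38.4 CPM in DMSO. The combination and afatinib libraries all lay above all romidepsin and DMSO libraries, and within each of these pairs of groups the libraries overlapped. The log2 fold change against DMSO was 2.41 (SE 0.08, edgeR adjusted p = 1.54e-30) in the combination and 2.47 (SE 0.08, edgeR adjusted p = 1.58e-29) under afatinib, with no overlap of libraries. Under romidepsin it was -0.11 (95% interval -0.29 to 0.07, edgeR adjusted p = 0.289). Between the combination and afatinib alone, SLC7A11 differed by a log2 fold change of -0.05 (95% interval -0.19 to 0.09, edgeR adjusted p = 0.524).

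GCLC and GCLM encode the catalytic and the modifier subunit of glutamate-cysteine ligase, the rate-limiting enzyme of glutathione synthesis, and the groups in which they were highest differed. GCLC (chromosome 6, 53497341 to 53616970) had 122, 137 and 144 CPM in the combination, 86.9, 91.2 and 89.4 CPM under romidepsin, 46.99, 42.04 and 42.2 CPM under afatinib and 36.9, 42.1 and 41.96 CPM in DMSO. GCLC rose in the combination (edgeR log2 fold change 1.74, SE 0.08, adjusted p = 7.82e-26) and under romidepsin (edgeR log2 fold change 1.15, SE 0.08, adjusted p = 4.16e-18). Its log2 fold change under afatinib was 0.12 (95% interval -0.04 to 0.28, edgeR adjusted p = 0.241). The combination libraries were above the romidepsin libraries (edgeR log2 fold change 0.59, SE 0.07, adjusted p = 5.64e-10) and above the afatinib libraries (edgeR log2 fold change 1.62, SE 0.07, adjusted p = 1.20e-24). Afatinib and DMSO libraries overlapped. GCLM (chromosome 1, 93885199 to 93909456) had 46.97, 54.2 and 48.97 CPM in the combination, 48.4, 60.6 and 52.2 CPM under romidepsin, 100.1, 90.6 and 94.4 CPM under afatinib and 57.9, 56.9 and 57.7 CPM in DMSO. For GCLM the afatinib libraries stood above all others (edgeR log2 fold change 0.72, SE 0.08, adjusted p = 4.55e-11), and the combination was slightly below DMSO (edgeR log2 fold change -0.20, SE 0.08, adjusted p = 0.0218). That call was lost in 10 of 20 alternative fits, the DESeq2 test, the unscaled library sizes and the fit without the 4 libraries with keratin reads among them, with adjusted p between 0.0582 and 0.551. It was also lost when combination replicate 1 or 3, afatinib replicate 1 or 3, or DMSO replicate 1 was left out. The log2 fold change of GCLM under romidepsin was -0.11 (edgeR adjusted p = 0.251).

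Of the 8 tested glutathione members, 4 rose and 4 fell in the combination (50% each, against 37.2% and 37.1% of all tested genes). Under romidepsin 3 rose and 3 fell (37.5% each, against 31.1% and 31.5%), and under afatinib 4 rose and none fell (50%, against 22.0% higher). GSS, glutathione synthetase, averaged 15.3 ± 3.01 CPM in the combination, 16.1 ± 0.924 under romidepsin, 25.4 ± 1.53 under afatinib and 25.96 ± 2.76 in DMSO (SD, n = 3 libraries each). It fell in the combination (edgeR log2 fold change -0.75, SE 0.12, adjusted p = 2.35e-07) and under romidepsin (edgeR log2 fold change -0.69, SE 0.12, adjusted p = 2.16e-06). GSR, glutathione reductase, which restores reduced glutathione with NADPH, rose in all 3 drug groups, with log2 fold changes of 0.52 in the combination, 0.35 under romidepsin and 0.72 under afatinib. ABCC1, an exporter of glutathione conjugates, fell to 6.31, 5.58 and 4.58 CPM in the combination and 8.59, 6.30 and 8.48 CPM under romidepsin, against 17.05, 15.3 and 16.4 CPM under afatinib and 17.2, 16.1 and 16.4 CPM in DMSO. Its log2 fold change was -1.60 (SE 0.15, edgeR adjusted p = 2.43e-13) in the combination and -1.07 (SE 0.15, edgeR adjusted p = 1.18e-08) under romidepsin. The fall of ABCC1 in the combination against afatinib alone was of like size (edgeR log2 fold change -1.57, SE 0.15, adjusted p = 4.98e-13).

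The glutathione peroxidases GPX1 and GPX4 moved in opposite directions in the combination and under romidepsin. GPX1, which reduces hydrogen peroxide, averaged 228 ± 16.3 CPM in the combination and 239 ± 18.03 under romidepsin, against 447 ± 20.7 under afatinib and 427 ± 45.8 in DMSO (SD, n = 3 libraries each). It fell in the combination (edgeR log2 fold change -0.90, SE 0.06, adjusted p = 5.97e-17) and under romidepsin (edgeR log2 fold change -0.84, SE 0.06, adjusted p = 1.64e-15). GPX4, which reduces lipid hydroperoxides and restrains ferroptosis, rose in all 3 drug groups, with log2 fold changes of 0.73 in the combination, 0.29 under romidepsin and 0.92 under afatinib. Copies of GPX1 by name held 3.08% of the counts summed over GPX1 and these copies.

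The genes TXNRD1, SRXN1 and TXN of the thioredoxin system were all highest in the combination. TXNRD1 encodes cytosolic thioredoxin reductase, the selenoenzyme that reduces thioredoxin with NADPH. TXNRD1 (chromosome 12, 104215779 to 104350307) had 880.4, 948 and 870.0 CPM in the combination, 185, 207 and 179 CPM under romidepsin, 387, 381 and 374 CPM under afatinib and 188, 172 and 185 CPM in DMSO. The combination libraries lay above all other libraries and the afatinib libraries came next, while romidepsin and DMSO libraries overlapped. TXNRD1 rose in the combination over DMSO (edgeR log2 fold change 2.31, SE 0.06, adjusted p = 3.38e-35), over romidepsin (edgeR log2 fold change 2.24, SE 0.06, adjusted p = 1.62e-33) and over afatinib (edgeR log2 fold change 1.24, SE 0.06, adjusted p = 5.28e-25). It also rose under afatinib alone (edgeR log2 fold change 1.07, SE 0.06, adjusted p = 8.66e-21). Under romidepsin alone its log2 fold change was 0.06 (95% interval -0.05 to 0.18, edgeR adjusted p = 0.358).

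SRXN1, which encodes sulfiredoxin, the enzyme that reactivates overoxidised peroxiredoxins, was low in DMSO and highest in the combination. SRXN1 (chromosome 20, 646615 to 653370) had 28.5, 27.7 and 46.8 CPM in the combination, 6.96, 8.13 and 6.77 CPM under romidepsin, 9.77, 5.21 and 7.71 CPM under afatinib and 2.33, 3.53 and 3.42 CPM in DMSO. Combination replicate 3 stood above the other combination libraries, and every combination library lay above every library of the other groups. SRXN1 rose in the combination (edgeR log2 fold change 3.48, SE 0.23, adjusted p = 1.20e-12), under romidepsin (edgeR log2 fold change 1.23, SE 0.28, adjusted p = 5.00e-04) and under afatinib (edgeR log2 fold change 1.30, SE 0.28, adjusted p = 4.46e-04). The combination exceeded romidepsin (edgeR log2 fold change 2.25, SE 0.20, adjusted p = 1.18e-09) and afatinib (edgeR log2 fold change 2.18, SE 0.20, adjusted p = 5.87e-10). Of the exon bases of SRXN1, most (84.95%) are shared with AL121758.1 on the same strand, which had 1 to 13 counts, and reads in shared bases are not assigned by this counting, so the level of SRXN1 is uncertain. TXN, thioredoxin itself, had 110.1, 105 and 104 CPM in the combination, 45.5, 55.3 and 49.6 CPM under romidepsin, 67.3, 62.5 and 69.1 CPM under afatinib and 38.5, 35.6 and 38.9 CPM in DMSO. It rose in every drug group and was highest in the combination (edgeR log2 fold change 1.49, SE 0.08, adjusted p = 6.40e-23). Processed copies by name held 9.84% of the counts summed over TXN and these copies in all libraries.

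The peroxiredoxins, peroxidases that thioredoxin or glutathione recycles, did not move in 1 direction. PRDX3, the mitochondrial member, fell to 48.1, 55.7 and 46.1 CPM in the combination, 97.2, 116 and 106 CPM under romidepsin and 94.7, 96.9 and 91.6 CPM under afatinib, against 164, 147 and 154 CPM in DMSO. Every drug-treated library of PRDX3 lay below every DMSO library, and the combination was lowest (edgeR log2 fold change -1.63, SE 0.07, adjusted p = 2.48e-25). PRDX2 (chromosome 19, 12796820 to 12801800), at a low level, had 2.88, 2.06 and 3.44 CPM in the combination, 1.37, 2.18 and 1.22 CPM under romidepsin, 10.7, 8.71 and 9.64 CPM under afatinib and 2.58, 3.43 and 3.68 CPM in DMSO. It rose under afatinib (edgeR log2 fold change 1.59, SE 0.21, adjusted p = 2.73e-08), fell under romidepsin (edgeR log2 fold change -1.06, SE 0.28, adjusted p = 0.00118) and was lower in the combination than under afatinib alone (edgeR log2 fold change -1.79, SE 0.22, adjusted p = 3.53e-10). PRDX5 rose in all 3 drug groups (log2 fold change 0.47 in the combination, 0.45 under romidepsin, 0.77 under afatinib). PRDX6 rose in the combination (0.52) and under romidepsin (0.46) and fell under afatinib (-0.34), on the log2 scale against DMSO. PRDX1, of whose exon bases 25.2% overlap MMACHC on the opposite strand, fell in the combination (-0.31) and under afatinib (-0.36) and rose under romidepsin (0.29). Without the 4 libraries with keratin reads, the falls under afatinib of PRDX1 (edgeR adjusted p = 0.0800) and PRDX6 (edgeR adjusted p = 0.0885) were not called, nor was that of PRDX1 in the combination (edgeR adjusted p = 0.155).

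Of the 3 tested members around NADPH, the transketolase gene TKT, which links the pentose phosphate pathway to glycolysis, was highest in the combination. TKT (chromosome 3, 53224712 to 53256052) had 427, 371 and 408 CPM in the combination, 193, 168 and 173 CPM under romidepsin, 201, 217 and 206 CPM under afatinib and 166, 169 and 174 CPM in DMSO. The combination libraries lay above all others, with log2 fold changes of 1.24 (SE 0.06, edgeR adjusted p = 5.44e-24) against DMSO, 1.17 (SE 0.06, edgeR adjusted p = 6.09e-22) against romidepsin and 0.95 (SE 0.06, edgeR adjusted p = 1.44e-19) against afatinib. TALDO1, transaldolase, averaged 69.8 ± 2.91 CPM in the combination, 76.4 ± 4.02 under romidepsin, 119.8 ± 1.08 under afatinib and 74.9 ± 3.82 in DMSO (SD, n = 3 libraries each). It rose under afatinib (edgeR log2 fold change 0.68, SE 0.07, adjusted p = 5.95e-12). In the combination TALDO1 was below afatinib alone (edgeR log2 fold change -0.78, SE 0.07, adjusted p = 1.03e-14). PGD, which makes NADPH from phosphogluconate, rose in the combination (0.35) and under afatinib (0.24), both as log2 fold changes. The call of PGD under afatinib was lost without afatinib replicate 3 (edgeR adjusted p = 0.0635) and without the 4 libraries with keratin reads (edgeR adjusted p = 0.0976).

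Per length, FTL had the highest level of the tested members in all 4 groups, and FTH1 came next in the 3 drug groups. In DMSO the value of GPX1 (361 CPM per kb) was above that of FTH1 (303 CPM per kb). The length of FTH1 includes the 63.2% of its exon bases that overlap BEST1, whose reads are not assigned. Its level per length is therefore too low, and its order against GPX1 in DMSO is uncertain. FTL, the ferritin light chain, averaged 3322 CPM per kb of exon in the combination, 2297 under romidepsin, 4413 under afatinib and 1675 in DMSO. FTL (chromosome 19, 48965309 to 48966879) had 3043, 2684 and 2955 CPM in the combination, 2116, 2019.7 and 1867 CPM under romidepsin, 3892, 3971 and 3669.6 CPM under afatinib and 1519.5, 1535 and 1323 CPM in DMSO. All drug-treated libraries lay above all DMSO libraries. Afatinib alone was the highest group (edgeR log2 fold change 1.40, SE 0.06, adjusted p = 1.16e-24), followed by the combination (edgeR log2 fold change 0.99, SE 0.06, adjusted p = 3.62e-20) and romidepsin (edgeR log2 fold change 0.46, SE 0.06, adjusted p = 3.83e-09). FTH1, the heavy chain with ferroxidase activity, had 1645, 1614 and 1871 CPM in the combination, 708, 665 and 660.1 CPM under romidepsin, 2539, 2042 and 2250.4 CPM under afatinib and 540.3, 693 and 591 CPM in DMSO (chromosome 11, 61959718 to 61967634). FTH1 rose under afatinib (edgeR log2 fold change 1.91, SE 0.08, adjusted p = 8.27e-15) and in the combination (edgeR log2 fold change 1.49, SE 0.08, adjusted p = 8.10e-14). Its log2 fold change under romidepsin was 0.16 (95% interval -0.01 to 0.33, edgeR adjusted p = 0.0996).

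FTH1 and FTL together took 0.475% ± 0.029 of all counts in the combination, 0.260% ± 0.014 under romidepsin, 0.630% ± 0.026 under afatinib and 0.199% ± 0.016 in DMSO (SD, n = 3 libraries each). Of the exon bases of FTH1, 63.2% overlap BEST1 on the opposite strand, and BEST1 had 276 to 342 counts in the combination, 9 to 32 under romidepsin, 226 to 236 under afatinib and 5 to 19 in DMSO. Reads of the overlapping bases are not assigned and strand was not used, so FTH1 and BEST1 cannot be told apart there. Processed copies by name held 3.07% of the counts summed over FTH1 and its copies, and 1.27% for FTL. BLVRB, biliverdin reductase B, a flavin and haem-product reductase, had 27.1, 24.98 and 31.6 CPM in the combination, 13.6, 14.8 and 12.9 CPM under romidepsin, 23.9, 27.1 and 23.8 CPM under afatinib and 5.67, 4.14 and 4.47 CPM in DMSO. Every drug-treated library of BLVRB lay above every DMSO library. The log2 fold changes were 2.54 (SE 0.14, edgeR adjusted p = 1.35e-21) in the combination, 1.51 (SE 0.15, edgeR adjusted p = 4.81e-12) under romidepsin and 2.37 (SE 0.14, edgeR adjusted p = 5.05e-19) under afatinib.

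Among the enzymes that remove superoxide and hydrogen peroxide, SOD2, the mitochondrial manganese superoxide dismutase, rose with romidepsin and most in the combination. SOD2 (chromosome 6, 159669069 to 159762529) had 1199, 1291 and 1199 CPM in the combination, 599.6, 649.6 and 622 CPM under romidepsin, 107, 104 and 112 CPM under afatinib and 117, 111 and 113 CPM in DMSO. The combination libraries lay above the romidepsin libraries, and both lay above all afatinib and DMSO libraries, which overlapped. SOD2 rose in the combination (edgeR log2 fold change 3.44, SE 0.06, adjusted p = 5.10e-42) and under romidepsin (edgeR log2 fold change 2.46, SE 0.06, adjusted p = 3.22e-36). The combination exceeded romidepsin (edgeR log2 fold change 0.98, SE 0.05, adjusted p = 3.71e-21) and afatinib (edgeR log2 fold change 3.51, SE 0.06, adjusted p = 6.78e-42). Under afatinib alone the log2 fold change of SOD2 was -0.08 (95% interval -0.19 to 0.04, edgeR adjusted p = 0.307). SOD1, the cytosolic enzyme, averaged 63.5 ± 1.00 CPM in the combination, 46.97 ± 0.200 under romidepsin, 40.9 ± 1.24 under afatinib and 42.6 ± 2.11 in DMSO (SD, n = 3 libraries each). It rose in the combination (edgeR log2 fold change 0.57, SE 0.08, adjusted p = 3.62e-09). CAT, catalase, rose in all 3 drug groups, with log2 fold changes of 0.87 in the combination, 0.70 under romidepsin and 0.53 under afatinib.

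The detoxification genes NQO1 and OSGIN1 were high in both groups with afatinib. NQO1, the quinone reductase that is a classical NRF2 target, had 103, 105 and 100.1 CPM in the combination, 22.9, 24.9 and 19.98 CPM under romidepsin, 117, 117 and 108 CPM under afatinib and 27.3, 29.5 and 29.8 CPM in DMSO (chromosome 16, 69706996 to 69726668). Its combination and afatinib libraries all lay above its romidepsin and DMSO libraries, and the romidepsin libraries lay below those of DMSO. Of the exon bases of NQO1, 19.35% overlap AC092115.2 on the opposite strand, which had no counts in any library. NQO1 rose in the combination (edgeR log2 fold change 1.83, SE 0.08, adjusted p = 3.78e-26) and under afatinib (edgeR log2 fold change 1.99, SE 0.08, adjusted p = 2.97e-26) and fell under romidepsin (edgeR log2 fold change -0.36, SE 0.09, adjusted p = 5.18e-04). OSGIN1, an oxidative stress-induced growth inhibitor, had 22.2, 15.6 and 19.02 CPM in the combination, 3.26, 1.37 and 1.88 CPM under romidepsin, 25.3, 29.4 and 21.8 CPM under afatinib and 2.25, 2.12 and 1.40 CPM in DMSO (chromosome 16, 83948282 to 83966332). All its combination and afatinib libraries lay above its romidepsin and DMSO libraries, and OSGIN1 rose in the combination (edgeR log2 fold change 3.29, SE 0.21, adjusted p = 4.36e-19) and under afatinib (edgeR log2 fold change 3.72, SE 0.20, adjusted p = 3.03e-20). UGDH, which makes the donor sugar of glucuronidation, rose in the combination (0.48) and under afatinib (0.30), as log2 fold changes. Its call under afatinib was lost without the 4 libraries with keratin reads (edgeR adjusted p = 0.0849).

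Against romidepsin alone, the combination raised 21 of the 33 tested members and lowered 4, where 25.1% of all tested genes were higher and 29.2% lower. The largest log2 fold changes were those of OSGIN1 (3.07), SLC7A11 (2.53), SRXN1 (2.25), TXNRD1 (2.24), NQO1 (2.20) and MAFF (1.98), and the members that fell were KEAP1, ABCC1, PRDX1 and PRDX3. Against afatinib alone, the combination raised 10 and lowered 17, where 33.4% of all tested genes were higher and 35.8% lower. The members that rose most were SOD2 (3.51), SRXN1 (2.18) and GCLC (1.62), and those that fell most were KEAP1 (-2.16), PRDX2 (-1.79) and ABCC1 (-1.57). NFE2L2 itself was higher in the combination than under romidepsin (0.38) and lower than under afatinib (-0.73). Libraries overlapped for 4 of these calls, namely ABCC1 and PRDX2 against romidepsin and OSGIN1 and GPX4 against afatinib. ABCC1 was not called without combination replicate 3, PRDX2 without combination or romidepsin replicate 3, and OSGIN1 without combination or afatinib replicate 2. GPX4 was not called without combination replicate 2, afatinib replicate 1 or DMSO replicate 1, nor with DESeq2. Among the members lower than under afatinib, NQO1 lost its call in 12 of 20 alternative fits and GSR in 5 of 20.

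For the interaction, the log2 changes under each drug alone were added up and subtracted from that under the combination. It asks where the drugs together departed from the sum of their separate effects. It was above 0 for 8 of the 33 tested members and below 0 for 14 (edgeR, adjusted p below 0.05), against 11.7% and 18.5% of all tested genes. The median over the tested members was -0.36, and that over all tested genes -0.058. Without the 4 libraries with keratin reads, 5 members in place of 8 were above 0. TXNRD1 (edgeR log2 difference 1.18, SE 0.08, adjusted p = 2.37e-16), SOD2 (edgeR log2 difference 1.05, SE 0.08, adjusted p = 3.48e-15) and TKT (edgeR log2 difference 0.88, SE 0.08, adjusted p = 1.10e-11) exceeded the sum of the single drugs. SRXN1 did so too (edgeR log2 difference 0.95, SE 0.36, adjusted p = 0.0484). The call of SRXN1 was lost when combination replicate 3, romidepsin replicate 1, 2 or 3, afatinib replicate 2 or 3, or DMSO replicate 2 or 3 was left out, with edgeR adjusted p between 0.0580 and 0.179. It was also lost under DESeq2 (adjusted p = 0.0708) and without the 4 libraries with keratin reads (edgeR adjusted p = 0.0615). MAFF (edgeR log2 difference 0.84, SE 0.33, adjusted p = 0.0443), SOD1 (0.49), GCLC (0.48) and PRDX6 (0.40) made up the 8. The call of MAFF was lost in 10 of 19 alternative fits, with adjusted p between 0.0503 and 0.213. They were those without combination replicate 2 or 3, romidepsin replicate 1 or 3, afatinib replicate 2, DMSO replicate 2 or 3 or the 4 libraries with keratin reads, with the replicate block, and with DESeq2. PRDX6 was not called without the 4 libraries with keratin reads (edgeR adjusted p = 0.0581).

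Among the 14 members below the sum, BLVRB (edgeR log2 difference -1.34, SE 0.19, adjusted p = 2.26e-07), FTL (edgeR log2 difference -0.86, SE 0.08, adjusted p = 1.22e-11), GCLM (edgeR log2 difference -0.82, SE 0.11, adjusted p = 7.30e-08) and TALDO1 (edgeR log2 difference -0.81, SE 0.10, adjusted p = 2.74e-09) were the furthest below it. All 3 tested iron and haem members and 4 of the 5 regulators were below the sum, against 18.5% of all tested genes. The regulators were NFE2L2 (-0.36), KEAP1 (-0.62), MAFG (-0.80) and BACH1 (-0.44). Without the 4 libraries with keratin reads, which leaves 1 DMSO library, BACH1 was not called (log2 difference -0.40). CAT (log2 difference -0.36) lost its call in 11 of 19 alternative fits, with adjusted p between 0.0530 and 0.194. For SLC7A11 the interaction was not called (log2 difference 0.06, 95% interval -0.17 to 0.29, edgeR adjusted p = 0.739), and NQO1 (0.21, edgeR adjusted p = 0.166) was not called either. The log2 difference of OSGIN1 was -0.65, with a 95% interval of -1.31 to 0.02 (edgeR adjusted p = 0.14).

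**Figure D3:**
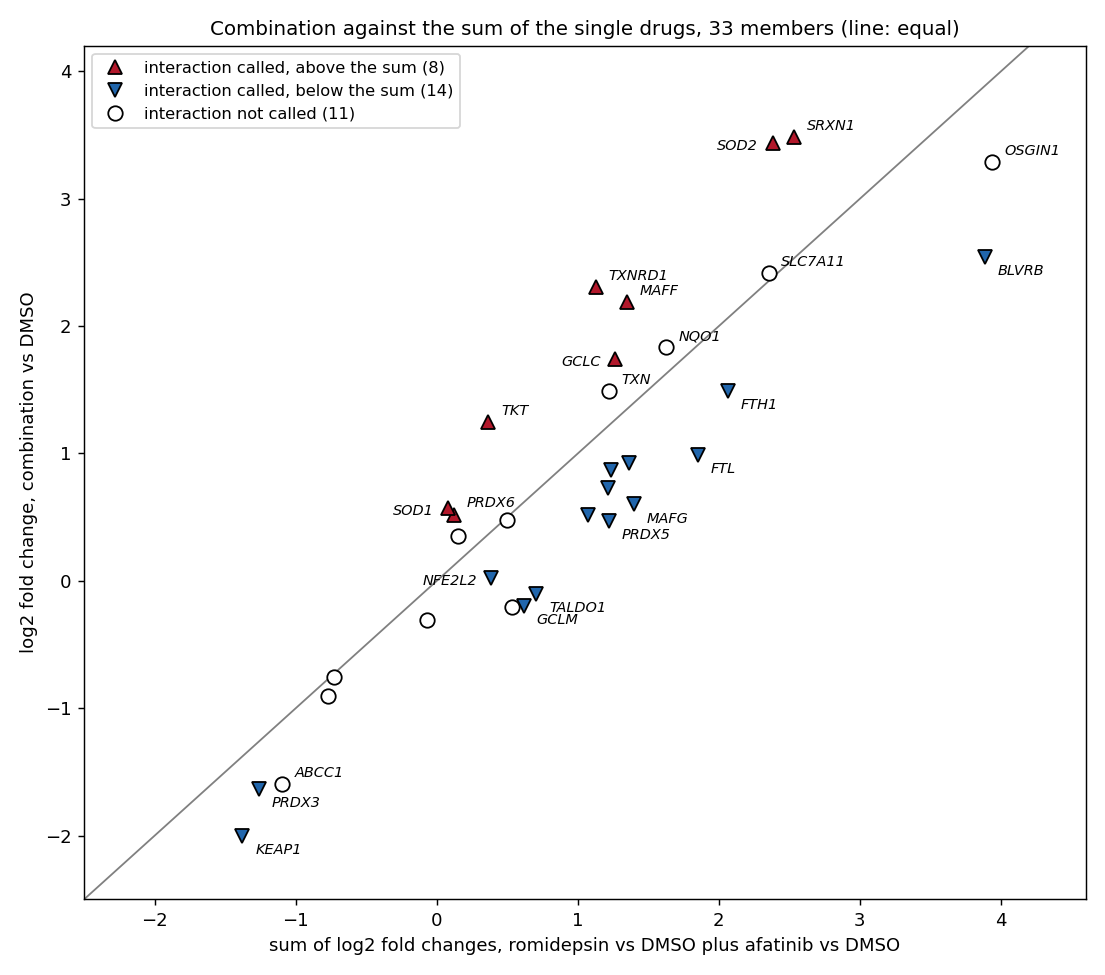
Log2 fold change of the combination against DMSO (vertical) and the sum of the log2 fold changes of romidepsin and of afatinib against DMSO (horizontal) for the 33 tested members; the line marks equality, upward triangles the 8 members with an interaction above 0, downward triangles the 14 below 0 and open circles the 11 not called. SOD2, SRXN1, TXNRD1, MAFF and TKT stand above the line and BLVRB, FTL and FTH1 below it.

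Wider lists of the same pathways held 181 other genes, of which 141 were tested. Under afatinib 40 of the 141 were higher and 40 lower (28.4% each), under romidepsin 51 and 46 (36.2% and 32.6%), and in the combination 62 and 60 (44.0% and 42.6%). Over all tested genes these shares were 22.0% and 23.3% under afatinib, 31.1% and 31.5% under romidepsin, and 37.2% and 37.1% in the combination. Of the 29 tested genes of glutathione, 18 rose and 9 fell in the combination (62.1% and 31%, against 37.2% and 37.1% of all tested genes). CHAC1, which degrades glutathione, averaged 432 ± 29.97 CPM in the combination, 9.22 ± 0.600 under romidepsin, 84.6 ± 5.49 under afatinib and 3.55 ± 1.04 in DMSO (SD, n = 3 libraries each). It rose in all 3 drug groups (edgeR log2 fold change 6.95, SE 0.10, adjusted p = 2.37e-44 in the combination). SLC3A2, the partner subunit of SLC7A11 in the cystine transporter, rose in the combination (edgeR log2 fold change 1.96, SE 0.06, adjusted p = 1.28e-31) and under afatinib (edgeR log2 fold change 2.20, SE 0.06, adjusted p = 2.18e-32) and fell under romidepsin (edgeR log2 fold change -0.39, SE 0.06, adjusted p = 2.80e-07). CTH, which makes cysteine from cystathionine, rose in the combination (2.84), under romidepsin (1.53) and under afatinib (3.31), and its combination stood below the sum (log2 difference -2.00, edgeR adjusted p = 1.18e-13).

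Of the 14 tested genes of the wider NADPH list, 4 rose and 10 fell in the combination (28.6% and 71.4%, against 37.2% and 37.1% of all tested genes). IDH1, the cytosolic NADP-dependent isocitrate dehydrogenase, rose in the combination (edgeR log2 fold change 3.28, SE 0.10, adjusted p = 5.61e-32), under romidepsin (1.91) and under afatinib (1.89). NNT, the mitochondrial transhydrogenase, was among those that fell in the combination (log2 fold change -1.26). H6PD, an enzyme that makes NADPH in the endoplasmic reticulum, fell in the combination (-0.83) and rose under afatinib (0.94).

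Of the 16 tested genes of the wider thioredoxin list, 8 rose and 7 fell in the combination (50% and 43.8%, against 37.2% and 37.1% of all tested genes). TXNIP, whose product binds and inhibits thioredoxin, averaged 361 ± 16.97 CPM in the combination, 472 ± 15.9 under romidepsin, 66.9 ± 1.93 under afatinib and 51.8 ± 1.76 in DMSO (SD, n = 3 libraries each). It rose in all 3 drug groups (edgeR log2 fold change 2.80, SE 0.06, adjusted p = 1.50e-37 in the combination). TXNRD2, the mitochondrial thioredoxin reductase, fell in the combination (edgeR log2 fold change -0.87, SE 0.19, adjusted p = 5.46e-05) and under romidepsin (edgeR log2 fold change -1.19, SE 0.20, adjusted p = 9.24e-07). Of the 20 tested genes of NRF2 regulation, 6 rose and 12 fell in the combination (30% and 60%, against the same 37.2% and 37.1%). SQSTM1, which encodes p62, a protein that binds KEAP1, rose in the combination (edgeR log2 fold change 2.69, SE 0.07, adjusted p = 1.47e-34), under romidepsin (0.78) and under afatinib (2.56). SESN2, a sestrin, rose in the combination (edgeR log2 fold change 3.73, SE 0.16, adjusted p = 1.18e-25), under romidepsin (edgeR log2 fold change 1.13, SE 0.21, adjusted p = 8.82e-06) and under afatinib (edgeR log2 fold change 3.62, SE 0.16, adjusted p = 9.78e-24). RBX1, a subunit of the ubiquitin ligase that KEAP1 serves, fell in the combination (edgeR log2 fold change -2.14, SE 0.23, adjusted p = 1.79e-11). NFE2L1, a relative of NRF2, rose under afatinib (edgeR log2 fold change 1.502, SE 0.05, adjusted p = 1.13e-28) and fell under romidepsin (edgeR log2 fold change -0.63, SE 0.05, adjusted p = 3.16e-15).

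Of the 23 tested genes of iron and haem, 10 rose and 7 fell in the combination (43.5% and 30.4%). Of 18 detoxification genes, 7 rose and 8 fell there (38.9% and 44.4%), and of 21 genes of ferroptosis, 9 rose and 7 fell (42.9% and 33.3%). Over all tested genes these shares were 37.2% and 37.1%. ALAD, an enzyme of haem synthesis, rose in the combination (edgeR log2 fold change 2.00, SE 0.07, adjusted p = 9.07e-31), and STEAP3, a ferrireductase of iron uptake, fell there (edgeR log2 fold change -2.10, SE 0.08, adjusted p = 9.26e-28). AIFM2, which encodes the ferroptosis suppressor FSP1, had 10.7, 11.3 and 11.2 CPM in the combination, 9.36, 9.28 and 6.93 CPM under romidepsin, 64.6, 72.1 and 64.6 CPM under afatinib and 42.9, 48.7 and 47.2 CPM in DMSO. It fell in the combination (edgeR log2 fold change -2.06, SE 0.10, adjusted p = 3.74e-23) and under romidepsin (edgeR log2 fold change -2.45, SE 0.11, adjusted p = 1.61e-24). GCH1, which supplies the antioxidant tetrahydrobiopterin, rose in the combination (edgeR log2 fold change 1.68, SE 0.07, adjusted p = 1.06e-25) and under romidepsin (1.91). SAT1, a polyamine acetyltransferase, rose in the combination (edgeR log2 fold change 3.37, SE 0.07, adjusted p = 6.19e-38), and PTGS2, often used as a marker of ferroptosis, rose in the combination (edgeR log2 fold change 3.27, SE 0.06, adjusted p = 2.29e-39) and under romidepsin (edgeR log2 fold change 3.89, SE 0.07, adjusted p = 9.87e-42). CYB5R1, a reductase on the wider detoxification list, rose in the combination (edgeR log2 fold change 1.99, SE 0.10, adjusted p = 7.12e-24).

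**Figure D4:**
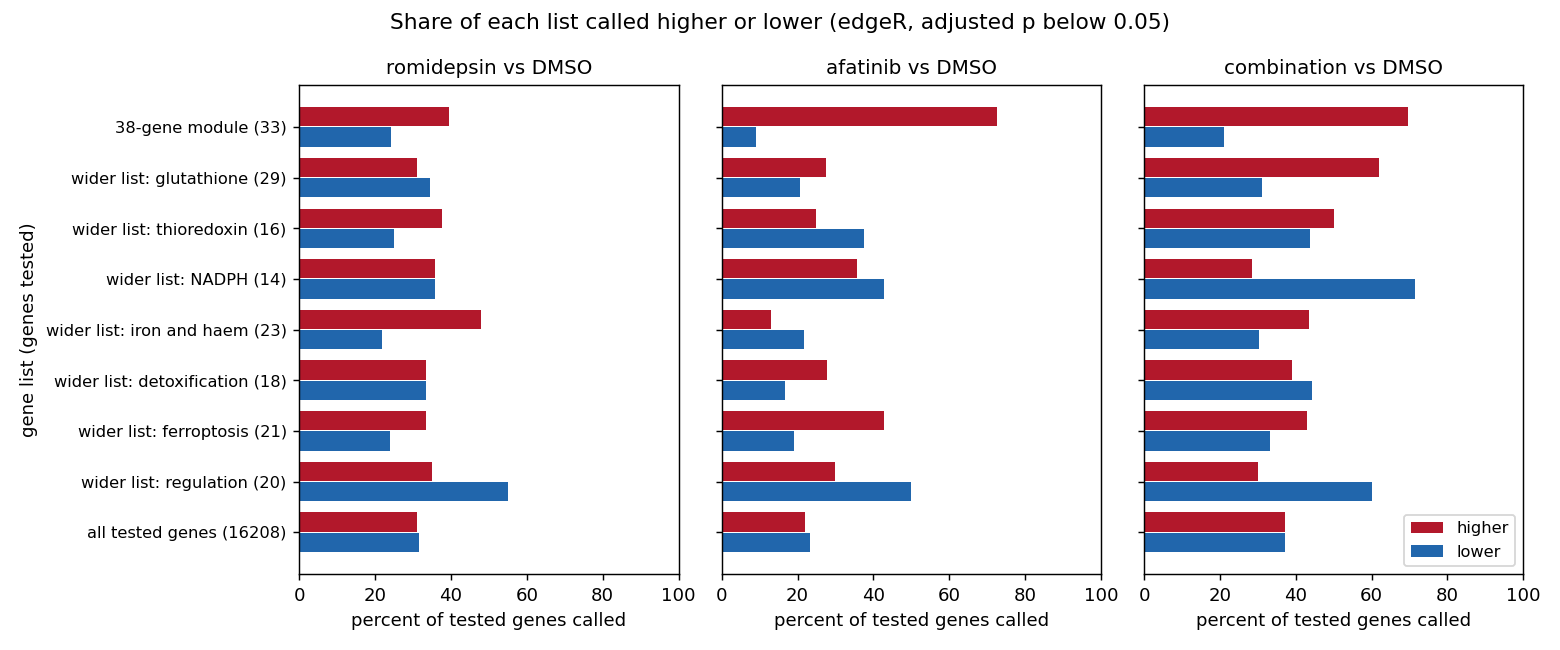
Percent of the tested genes of each list called higher (red) or lower (blue) against DMSO in 3 comparisons, with the number of genes tested in brackets and all 16208 tested genes in the bottom row. The module stands at 72.7% higher under afatinib and 69.7% in the combination, while the wider NADPH list stands at 71.4% lower in the combination.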

How the data were processed

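Bulk RNA was sequenced from MyLa cells in 4 groups of 3 libraries, grouped by the treatment in the labels. The deposited counts are whole numbers of read pairs per gene name, without scaling, made with featureCounts 2.0.0 and GENCODE 31 without strand, multi-mapping reads or reads of overlapping genes, per the file headers; STAR 2.7.9a, GRCh38.p12 and DESeq2 1.38.1 are named in the submitters' processing notes. The other deposited table, called normalized, was not used: its codes follow the counts sorted as text and not their size (Spearman correlation 0.0217 to 0.0492 with the counts).

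Genes were filtered with filterByExpr and scaled by TMM, and edgeR 4.0.16 (R 4.3.3; glmQLFit, robust, with glmQLFTest, two-sided, on 4 group means over 12 libraries) tested 6 contrasts, with Benjamini-Hochberg adjustment over 16208 genes and a threshold of 0.05. The library sizes limit low genes: intervals and the floor of 3 counts cover counting error only. Alternatives were DESeq2 1.42.0 (its size factors and Wald test), library size only, other filters (at least 1 count; 1 CPM in 3 libraries), the replicate block, only the groups compared, leaving out each library, and, added after seeing the data, leaving out the 4 libraries with keratin reads.

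Per-library values are given for members past the threshold whose log2 fold change was 1 or more in size against DMSO (up to 10 per comparison) or 0.5 in the other comparisons (up to 6), and for NFE2L2, KEAP1 and BACH1. Other members named with values were chosen by role, after their values were seen. Genes of the wider lists are among the 3 per list and comparison with the largest changes at a mean of at least 5 CPM. Some genes that meet these rules are not reported here. The members and lists were chosen with earlier results of these data known. Overlaps and copies were counted by coordinates and by name in the count table. Promoter sequences are from RefSeq (GRCh38.p14), and motif letters were matched by script on both strands.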

Additional observations from a re-analysis of the deposited data

Results flagged for a closer look

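The 22 tested members for which the combination departed from the sum of the single drugs (edgeR, adjusted p below 0.05, 3 libraries per group) are listed here by their log2 difference. Above the sum stood TXNRD1 (1.18), SOD2 (1.05), SRXN1 (0.95), TKT (0.88), MAFF (0.84), SOD1 (0.49), GCLC (0.48) and PRDX6 (0.40). Below it stood BLVRB (-1.34), FTL (-0.86), GCLM (-0.82), TALDO1 (-0.81), MAFG (-0.80), PRDX5 (-0.76), KEAP1 (-0.62), FTH1 (-0.57), GSR (-0.56), GPX4 (-0.49), BACH1 (-0.44), PRDX3 (-0.37), CAT (-0.36) and NFE2L2 (-0.36). The difference was tested in each case by the interaction term, that is, whether the effect of one drug was the same with and without the other. Of all tested genes, 11.7% were above and 18.5% below the sum. SRXN1 and MAFF each lost the call in 10 of 19 alternative fits and CAT in 11 of 19. BACH1 and PRDX6 each lost it in 1 of 19.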

How the results depend on the processing

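Across the alternatives the number of members called kept within 1.5 times its main value, except without the 4 libraries that held keratin reads. This setting was added once the data had been seen and leaves 1 DMSO library that is assumed to vary like the other groups. There 1 member in place of 3 was lower under afatinib and 5 in place of 8 were above the sum in the interaction; fewer samples entered the test. When each library was left out in turn, the members called higher and lower numbered 13 to 15 and 8 to 9 under romidepsin, 23 to 24 and 3 under afatinib, 23 and 6 to 7 in the combination, 20 to 22 and 3 to 4 in the combination against romidepsin, 10 to 11 and 14 to 17 against afatinib, and 6 to 9 and 13 to 15 in the interaction. Single members were refitted wherever they were called, and NFE2L2, KEAP1 and BACH1 in every comparison. Of 3058 refits of 154 such results, 2978 kept their direction and side of the threshold, 80 kept their direction and lost the call, and none reversed. The 18 results that lost a call were KEAP1, PGD, PRDX1, PRDX6 and UGDH under afatinib, PRDX1 and GCLM in the combination, ABCC1 and PRDX2 in the combination against romidepsin, GSR, NQO1, OSGIN1 and GPX4 against afatinib, and SRXN1, BACH1, PRDX6, CAT and MAFF in the interaction. Of these, 12 lost it without the 4 libraries with keratin reads and 8 with the DESeq2 Wald test. Of 2499 refits of 126 results on genes of the wider lists, 2480 kept their call, 19 lost it and none reversed. Library size only moved the share of higher among all calls under afatinib to 62.2%, against 48.6%, and the median of all genes to 0.10 on the log2 scale, and the members called there to 26 higher and 3 lower. The same share moved to 55.2%, against 46.2%, in the combination against romidepsin. It moved to 54.8%, against 50.1%, in the combination against DMSO, and less in the remaining comparisons. Replicate numbers did not pair the libraries, since the correlations of deviations from group means were -0.090 to 0.089 for the same number and -0.082 to 0.068 for different numbers. With the replicate block, 7 in place of 8 members were above the sum in the interaction, and the other counts of members called were as in the main test. Depth limits HMOX1, ME1, GSTP1, EPHX1 and PIR, which had too few counts to test.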
